A study of Mus musculus with 300 samples.

Results

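Complement, coagulation and acute phase genes were followed in mice dosed with agonists of the peroxisome proliferator-activated receptors (PPARs). The members were 39 genes for plasma proteins that liver secretes in bulk, together with the C1q chains, which macrophages make. Each gene stood for itself by the Affymetrix probe set with the highest mean over all arrays, and 38 of the 39 had one, out of 18193 genes measured. Mice received WY14643 (an agonist of PPAR-alpha), GW501516 (an agonist of PPAR-delta) or rosiglitazone (an agonist of PPAR-gamma) by mouth at 10 mg/kg, or vehicle, and liver, heart, kidney and skeletal muscle were taken on days 4, 8 and 15. Each compound had 5 arrays per day and vehicle had 10, so a tissue held 75 arrays. Strain, sex and age were not given in the sources used here.

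Complement is a cascade of plasma proteases started by C1q or by mannose-binding lectin, and it ends in a pore built of C5b, C6, C7, C8 and C9 in the target membrane. Coagulation is a second protease cascade, in which the contact and tissue factor pathways lead to thrombin, and thrombin turns fibrinogen into fibrin. Hepatocytes make most proteins of both cascades, and in the acute phase response cytokines shift their output through STAT and C/EBP transcription factors.

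Levels are log2 intensities. A change is a log2 difference between a compound and vehicle of the same day, averaged over the 3 days with equal weight, and a gene is called where limma's adjusted p (Benjamini-Hochberg over all genes) is under 0.05. In liver the vehicle means of the members ran from 9.64 to 14.35, where the highest value of any gene on any liver array was 14.73 and the median was 7.37. The SD of the members over the 30 vehicle livers ran from 0.03 to 0.302. The PPAR target Cyp4a14, a fatty acid hydroxylase, rose in liver by 5.67 ± 0.478 (SE) with WY14643 and by 5.48 ± 0.478 with GW501516, and measured 0.73 ± 0.478 with rosiglitazone (adjusted p = 0.34, limma). Among other PPAR targets, Vnn1 rose by 3.88, 3.35 and 2.36 with WY14643, GW501516 and rosiglitazone in that order. Acot1 rose by 2.71, 2.8 and 1.66, and Ehhadh by 1.89, 1.56 and 0.18 (adjusted p = 0.0193 for the last, limma). Hepatocyte markers averaged 13.19 to 13.39 over all liver arrays, and albumin (Alb) lay between 14.38 and 14.61 on them. Replicates 2 and 5 of WY14643 on day 4 had the lowest array weights of the 75 livers, 0.282 and 0.285 (limma). The labels number replicates, taken here as separate mice, and p-values measure the spread between them. In whole liver, fewer cells of a type and less RNA per cell cannot be told apart.

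The promoters of 3 genes that fell with WY14643 are shown because they carry the half-site bound by nuclear receptors, the family to which PPARs belong. They are RefSeq windows (GRCm38.p6) of 250 bases before and 50 after the gene's start, read along the gene's strand. Capitals mark the nuclear receptor half-site AGGTCA, the STAT motif TTCNNNGAA, the C/EBP motif TTGCNNAA or the HNF1 half-site GTTAAT on either strand, overlaps included. C8b is on the plus strand at chr4:104766067-104766366, C6 on the plus strand at chr15:4726960-4727259 and F7 on the plus strand at chr8:13025784-13026083. The window of Fgb, a fibrinogen chain that was not called with WY14643, is on the minus strand at chr3:83049814-83050113.
C8b: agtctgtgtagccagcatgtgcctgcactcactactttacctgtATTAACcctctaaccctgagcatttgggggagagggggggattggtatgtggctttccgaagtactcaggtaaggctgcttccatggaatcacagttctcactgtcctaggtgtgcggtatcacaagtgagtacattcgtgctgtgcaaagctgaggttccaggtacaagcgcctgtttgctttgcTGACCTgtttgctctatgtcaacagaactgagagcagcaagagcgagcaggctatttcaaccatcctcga
C6: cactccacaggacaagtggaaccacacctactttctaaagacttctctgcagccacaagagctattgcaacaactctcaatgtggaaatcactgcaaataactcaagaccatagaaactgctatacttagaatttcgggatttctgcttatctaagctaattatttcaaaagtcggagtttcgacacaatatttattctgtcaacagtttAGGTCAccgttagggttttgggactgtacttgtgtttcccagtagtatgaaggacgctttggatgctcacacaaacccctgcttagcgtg
F7: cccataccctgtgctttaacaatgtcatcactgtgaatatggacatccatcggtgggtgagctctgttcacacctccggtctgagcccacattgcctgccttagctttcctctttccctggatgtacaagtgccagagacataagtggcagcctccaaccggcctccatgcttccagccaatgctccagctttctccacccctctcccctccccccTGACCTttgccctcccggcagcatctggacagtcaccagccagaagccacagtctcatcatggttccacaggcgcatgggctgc
Fgb: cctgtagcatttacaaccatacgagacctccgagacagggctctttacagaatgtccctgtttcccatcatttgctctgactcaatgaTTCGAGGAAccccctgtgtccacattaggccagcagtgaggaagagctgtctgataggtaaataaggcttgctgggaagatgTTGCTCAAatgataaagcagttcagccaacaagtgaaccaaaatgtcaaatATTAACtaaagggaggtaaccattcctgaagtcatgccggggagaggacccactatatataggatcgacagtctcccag

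Windows were found for 30 of the 38 members. The half-site AGGTCA was in 13 of the 30 (43.3%), against 16.3% of all 32851 windows. The C/EBP motif was in 11 (36.7% against 10.8%), the STAT motif in 7 (23.3% against 8.3%) and the HNF1 half-site in 7 (23.3% against 7.1%). Among the 16 members with a window that fell in liver with WY14643, 6 held AGGTCA, as did 7 of the other 14. A match of letters is a description of the window and does not show binding.

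In liver, WY14643 lowered 21 of the 38 members and raised 2, by limma, where 5.72% of all genes were called lower and 5.51% higher. The falls were small: the median change of the members was -0.08, against -0.01 over all genes, and the largest, in the pore subunit C8b, left 73.1% of the vehicle level on the array's scale. Genes of the terminal pore were among the lowest, and the fibrinogen chains were not called. Hepatocyte markers fell in 4 of 16 with WY14643, by 0.03 to 0.09, and their mean ran from 13.19 to 13.34 on its arrays against 13.20 to 13.38 in vehicle. Neutrophil markers rose in 5 of 6 with WY14643, by 0.36 to 1.01, with a mean of 5.26 to 8.57 against 5.07 to 6.30. Without the 2 low-weight arrays the same 5 markers measured 0.24 to 0.79 with adjusted p from 0.0658 to 0.134 (limma), so 0 of the 6 were called, while 22 of the 23 members still were, F9 being the exception. The part of neutrophil RNA in the result was not tested.

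**Figure D1:**
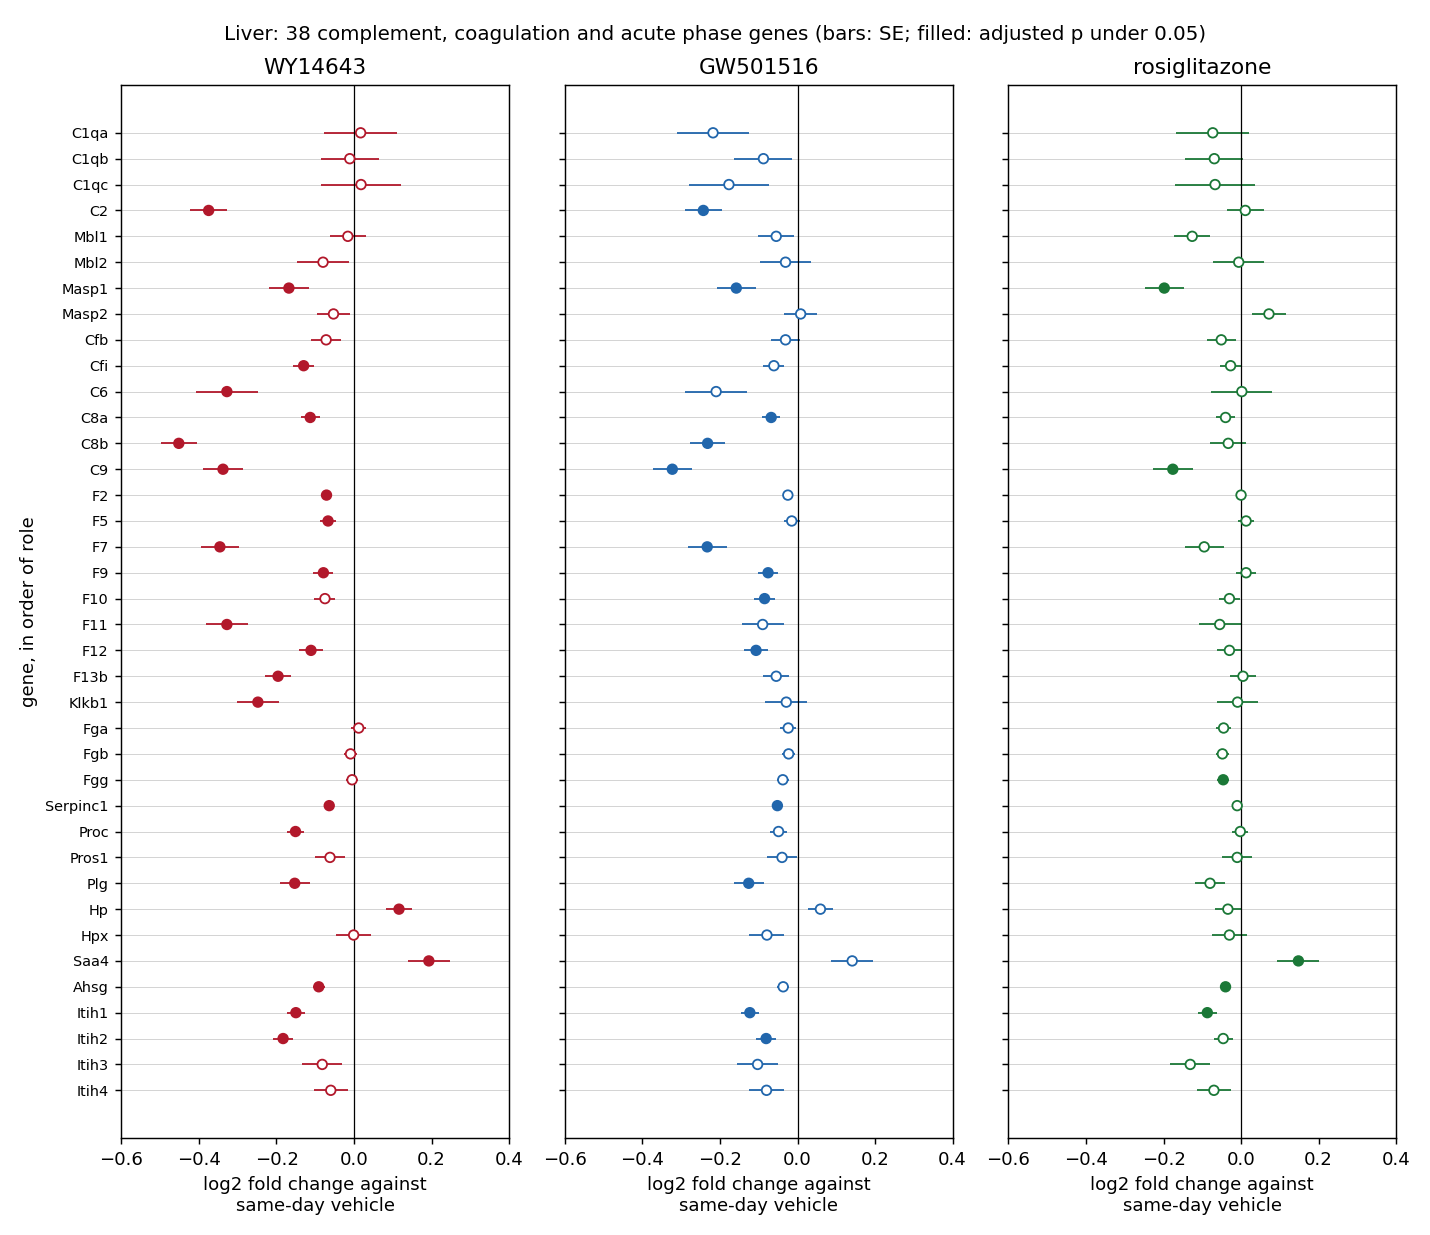
Log2 fold change against same-day vehicle in liver (x axis) for the 38 genes (y axis, in order of role), with 1 panel per compound. Points are means over the 3 days, bars are SE, and filled points have an adjusted p under 0.05. Filled points number 23 with WY14643, 13 with GW501516 and 6 with rosiglitazone, and nearly all of them lie left of 0.

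The terminal pore was the one role in which each measured member fell with WY14643, 4 of 4. C8b, the beta chain of the C8 complex, measured 12.78, 13.10 and 13.28 (lowest, median and highest) in the 30 vehicle livers and 12.29, 12.64 and 12.95 in the 15 WY14643 livers. It fell by 0.45 ± 0.046 (SE, adjusted p = 5.06e-12, limma), and 15 of 15 arrays lay below the vehicle mean of their day. On day 8 the 5 arrays read 12.55, 12.36, 12.29, 12.51 and 12.82, and only the last was above the lowest vehicle array of that day. On day 15 the groups did not overlap, with 12.61 to 12.81 against 12.92 to 13.28.

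C9, which polymerises to form the pore wall, measured 12.98, 13.47 and 13.72 in vehicle and 12.87, 13.13 and 13.41 with WY14643. It fell by 0.34 ± 0.051 (adjusted p = 7.51e-07, limma), with 15 of 15 arrays below the vehicle mean of their day, although the ranges overlapped. C6, which binds C5b to start the pore, measured 12.11, 12.70 and 12.93 in vehicle and 11.67, 12.37 and 12.76 with WY14643. It fell by 0.33 ± 0.079 (adjusted p = 0.00197, limma) with 12 of 15 arrays below, and its spread was wider with the compound (SD 0.327, n = 15) than in vehicle (SD 0.198, n = 30). C8a, the alpha chain encoded beside C8b on GRCm38.p6, fell by 0.11 ± 0.024.

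At the start of the cascade only C2 and Masp1 were called with WY14643, 2 of 8. C2, the protease of the classical and lectin C3 convertase, measured 11.37, 11.84 and 12.13 in vehicle and 11.01, 11.51 and 11.69 with WY14643. It fell by 0.37 ± 0.048 (adjusted p = 8.15e-09, limma) in 15 of 15 arrays, and each of its 3 probe sets was called lower. Cfb, the matching protease of the alternative arm and the neighbour of C2 on GRCm38.p6, measured -0.07 ± 0.038 (adjusted p = 0.267). Cfi, which cleaves C3b and C4b, fell by 0.13 ± 0.027. The 3 C1q chains measured between -0.01 and 0.02 with SE up to 0.104, so a change the size of that in C8a was not detectable for them.

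Masp1 and Masp2, the proteases carried by mannose-binding lectin, depended on the probe set. Masp2 was not called by the probe set chosen over all tissues (-0.05 ± 0.043), but the probe set brighter in liver fell by 0.20 ± 0.038 (adjusted p = 0.000129, limma). Masp1 fell with WY14643 by 0.17 ± 0.051 on the chosen probe set and by 0.11 ± 0.025 on the one brighter in liver.

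Of the coagulation factors 8 of 9 fell with WY14643. F7, which with tissue factor starts coagulation, measured 10.82, 11.10 and 11.50 in vehicle and 10.36, 10.75 and 11.30 with WY14643. It fell by 0.35 ± 0.050 (adjusted p = 2.73e-07, limma) with 14 of 15 arrays below the vehicle mean of their day, and on day 8 the groups did not overlap (10.36 to 10.75 against 10.82 to 11.22). F10, its substrate and its neighbour on GRCm38.p6, was the factor not called (-0.075 ± 0.027, adjusted p = 0.0593).

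F11, a protease of the contact pathway, measured 12.15, 12.40 and 12.71 in vehicle and 11.36, 12.18 and 12.43 with WY14643. It fell by 0.33 ± 0.054 (adjusted p = 5.83e-06, limma) in 15 of 15 arrays, and the groups did not overlap on day 15. Its neighbour Klkb1, plasma prekallikrein, fell by 0.25 ± 0.054, and F13b, the carrier subunit of factor XIII, by 0.20 ± 0.033. F12 fell by 0.11 ± 0.032, F9 by 0.08 ± 0.026, F5 by 0.07 ± 0.021 and F2, prothrombin, by 0.07 ± 0.012.

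The fibrinogen chains Fga, Fgb and Fgg measured 0.01 ± 0.020, -0.01 ± 0.017 and -0.005 ± 0.015 with WY14643, with adjusted p from 0.805 to 0.894. Fgb was 14.20, 14.36 and 14.41 in vehicle and 14.22, 14.31 and 14.56 with the compound, near the top of the scale. These ranges pool the days, and on day 8 alone the WY14643 arrays of Fgb did not overlap vehicle. By day, Fgg was called higher on day 4 (0.08 ± 0.026, adjusted p = 0.0445, limma) and lower on day 8 (-0.09 ± 0.026, adjusted p = 0.0286). The difference between those days was not tested.

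Among the inhibitors of coagulation, Proc (protein C) fell by 0.15 ± 0.021 and Serpinc1 (antithrombin) by 0.06 ± 0.010, while the cofactor Pros1 was not called (-0.06 ± 0.039). Plg, plasminogen, measured 12.11, 12.36 and 12.65 in vehicle and 11.96, 12.28 and 12.45 with WY14643, and fell by 0.15 ± 0.039 with overlapping ranges. Itih1 and Itih2, heavy chains that stabilise hyaluronan, fell by 0.15 ± 0.024 and 0.18 ± 0.025, and Itih3 and Itih4 were not called. Itih1 lay at 13.34, 13.46 and 13.64 in vehicle and 13.16, 13.31 and 13.46 with WY14643, below the vehicle mean of the day on 15 of 15 arrays.

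The 2 members that rose with WY14643, Saa4 and Hp, were listed by role with the acute phase plasma proteins, and both calls depended on the processing. Neither was called with the replicate block or with arrays shifted to one median, and Saa4 was also not called without day 8 or with the mean of all probe sets (0.16 to 0.29 for Saa4 and 0.08 to 0.14 for Hp over 13 alternatives). Saa4, the constitutive serum amyloid A, measured 12.57, 12.86 and 13.42 in vehicle and 12.70, 12.98 and 13.64 with WY14643. It rose by 0.19 ± 0.054 (adjusted p = 0.00918, limma) with 12 of 15 arrays above the vehicle mean of their day and ranges that overlapped. Hp, the haemoglobin scavenger haptoglobin, rose by 0.12 ± 0.033 (13.92, 14.07 and 14.44 against 14.02, 14.14 and 14.56). Ahsg, fetuin-A, a negative acute phase protein, fell by 0.09 ± 0.015, and Hpx, the haem carrier hemopexin, measured 0.00 ± 0.045.

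**Figure D2:**
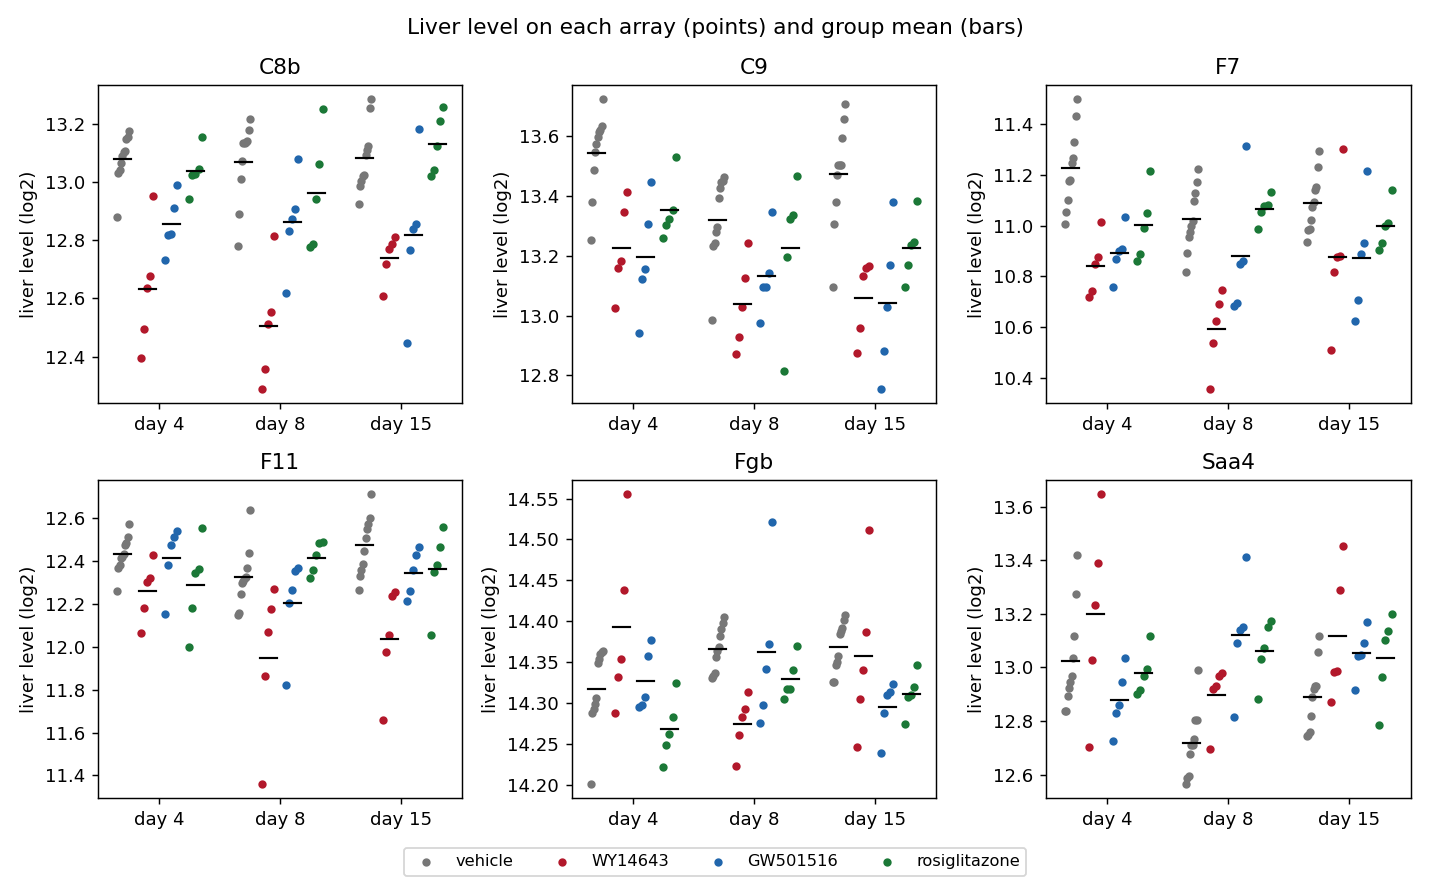
Liver level (y axis, log2) of C8b, C9, F7, F11, Fgb and Saa4 on each array (points) by day and compound, with the group mean as a bar. WY14643 arrays of C8b on day 15 lie at 12.61 to 12.81, below the vehicle arrays at 12.92 to 13.28. On day 4 the WY14643 arrays of C8b, Fgb and Saa4 all overlap vehicle, and on day 8 those of Fgb do not.

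By day, WY14643 lowered 10 members and raised 1, Fgg, on day 4 (6.45% of all genes were called), lowered 15 on day 8 (6.32%) and lowered 9 on day 15 (2.86%). C8b, C9 and C2 were called on each day. C8b differed from vehicle by -0.45, -0.56 and -0.34 on days 4, 8 and 15, C9 by -0.32, -0.28 and -0.41, and C2 by -0.46, -0.33 and -0.33. F7 was called on days 4 and 8 (-0.39 and -0.44), with -0.21 on day 15 (adjusted p = 0.197, limma), and F11 on days 8 and 15 (-0.38 and -0.44), with -0.17 on day 4 (adjusted p = 0.287).

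No member's effect was called as different between day 15 and day 4. The count was 0 with WY14643 (3 at an unadjusted p under 0.05 by limma, where 0.753% of all genes were called), 0 with GW501516 (3 unadjusted, 0.0%) and 0 with rosiglitazone (1 unadjusted, 0.132%). Members with no overlap between the 5 WY14643 arrays and the 10 vehicle arrays of a day were C2 and F5 on day 4 (1.19% of all genes), F7, Fgb, Serpinc1, Ahsg and Itih1 on day 8 (2.13%), and C8b, F2, F11 and Itih2 on day 15 (1.12%).

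**Figure D3:**
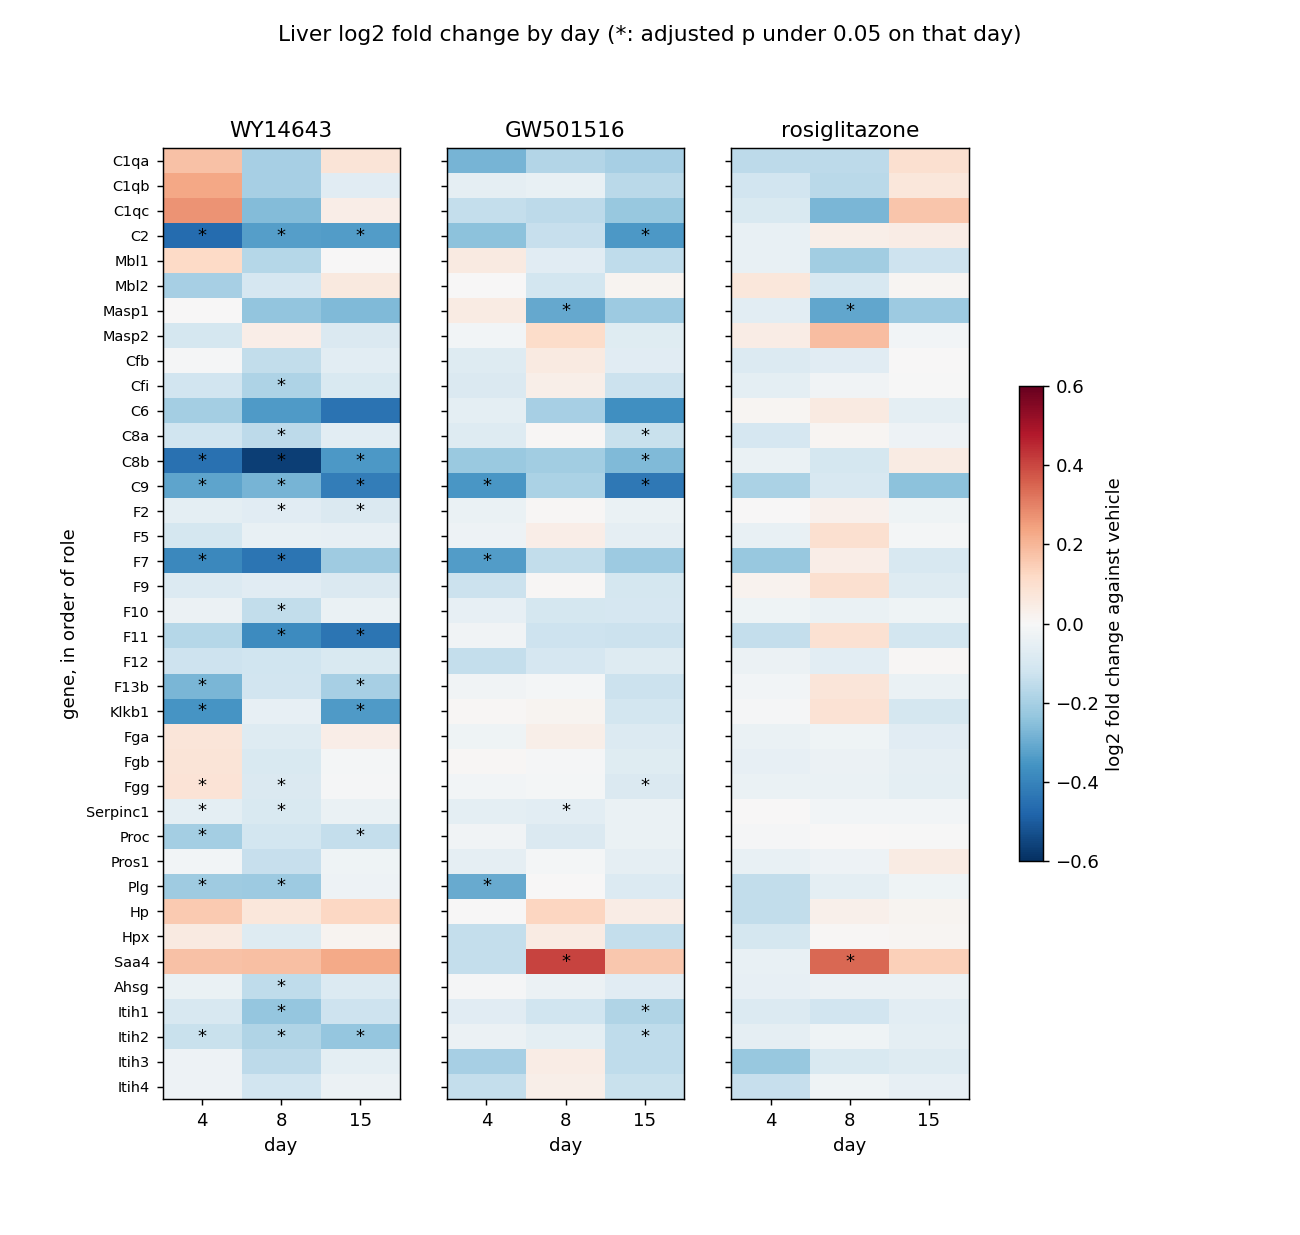
Heat map of the log2 fold change against same-day vehicle in liver for the 38 genes (rows, in order of role) on days 4, 8 and 15 (columns), with 1 panel per compound. Blue is lower and red higher than vehicle, and an asterisk marks an adjusted p under 0.05 on that day; C8b with WY14643 reads -0.45, -0.56 and -0.34.

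GW501516 lowered 13 of the 38 members in liver and raised 0, against 7.06% of all genes called lower and 6.86% higher (22 members had an unadjusted p under 0.05 by limma). The median change was -0.072, against -0.008 over all genes. By role it lowered 3 of 4 pore genes, 2 of 8 at the start of complement, 4 of 9 coagulation factors, 2 of 4 inhibitors and plasminogen, and 2 of 4 Itih chains. This comparison shares its vehicle arrays with the others. Of 7 markers of stellate cells and fibroblasts, 3 fell with GW501516: Lrat by 0.38, Pdgfrb by 0.28 and Des by 0.16. Their mean ran from 8.25 to 9.83 with GW501516 against 8.42 to 9.54 in vehicle, and their part in the result was not tested.

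C9 was the furthest from vehicle with GW501516, at 12.75, 13.12 and 13.45, and fell by 0.32 ± 0.051 (adjusted p = 1.78e-06, limma) with 14 of 15 arrays below the vehicle mean of their day. C2 lay at 11.11, 11.58 and 11.84 and fell by 0.24 ± 0.048 (14 of 15). C8b lay at 12.45, 12.84 and 13.18 and fell by 0.23 ± 0.046 (13 of 15), leaving 85.1% of the vehicle level. The ranges of these 3 genes overlapped vehicle.

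F7 lay at 10.63, 10.87 and 11.31 with GW501516 and fell by 0.23 ± 0.050. F12, the contact factor, fell by 0.11 ± 0.032, and F10 and F9 by 0.085 ± 0.027 and 0.08 ± 0.026. F11 (-0.09 ± 0.054) and Klkb1 (-0.03 ± 0.054), both called with WY14643, were not called. Plg fell by 0.13 ± 0.039, Itih1 by 0.12 ± 0.024, Itih2 by 0.08 ± 0.025 and Serpinc1 by 0.05 ± 0.010, the last on 15 of 15 arrays.

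By day, GW501516 lowered 3 members on day 4 (1.35% of all genes were called), lowered 2 and raised 1 on day 8 (8.83%), and lowered 7 on day 15 (4.42%). The day 8 rise was Saa4, by 0.41 ± 0.093 (adjusted p = 0.00214, limma), from 12.57 to 12.99 in vehicle to 12.82 to 13.41. Fgb, Fgg and Itih1 did not overlap vehicle on day 15 (1.92% of all genes), and no member did so on day 4 (1.08%) or day 8 (2.39%).

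Rosiglitazone lowered 5 members in liver and raised 1, against 8.71% of all genes called lower and 7.48% higher, with a median change of -0.037 against -0.024. Masp1 lay at 10.33, 10.61 and 10.82 against 10.41, 10.78 and 11.17 in vehicle and fell by 0.20 ± 0.051 (adjusted p = 0.00356, limma), but its probe set brighter in liver measured 0.02 ± 0.025. C9 lay at 12.81, 13.30 and 13.53 and fell by 0.18 ± 0.051 (12 of 15 arrays below). Itih1 fell by 0.09 ± 0.024, Fgg by 0.05 ± 0.015 and Ahsg by 0.04 ± 0.015, and Saa4 rose by 0.15 ± 0.054 (adjusted p = 0.047). Of the 7 stellate cell and fibroblast markers, Col1a1 fell by 0.85, Pdgfrb by 0.31 and Des by 0.18 with rosiglitazone, with a mean of 8.15 to 9.17, and their part in the result was not tested. The count of members was 3 without rosiglitazone day 15 replicate 4 and 10 without WY14643 day 4 replicate 2, which enters through the shared variance.

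By day, rosiglitazone had 0 members called on day 4 (6 at an unadjusted p under 0.05 by limma, 1.23% of all genes called) and 0 on day 15 (4 unadjusted, 5.34%). On day 8 it lowered Masp1 and raised Saa4 (12.8% of all genes called). No member avoided overlap with vehicle on day 4 (0.621% of all genes), day 8 (3.89%) or day 15 (1.63%).

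Genes of the circadian clock moved with GW501516 and rosiglitazone in the same livers. Of 17 clock genes, 8 rose and 4 fell with each of those compounds, while 1 rose and 1 fell with WY14643. With components of the clock genes as covariates, 23 of 23 members stayed called with WY14643, 0 of 13 with GW501516 and 0 of 6 with rosiglitazone. The median size of those members' changes went from 0.123 to 0.093 with GW501516 while their median SE went from 0.032 to 0.052, and with rosiglitazone from 0.118 to 0.019 and from 0.038 to 0.075. The part of the clock in these calls was not tested.

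The compounds were compared directly at the same dose and days, in 3 pairs, each adjusted over all genes. WY14643 was lower than GW501516 for 8 members (2.28% of all genes) and higher for none. C8b differed by -0.22 (95% interval -0.33 to -0.11, adjusted p = 0.00585, limma), F11 by -0.24 (-0.36 to -0.11) and Klkb1 by -0.22 (-0.34 to -0.09). The others were F13b, Proc, Itih2, F2 and Ahsg, by 0.05 to 0.14. The count was 5 without WY14643 day 15 replicate 5 and 3 without the 2 low-weight arrays. C9 differed by -0.01 (-0.13 to 0.10), C2 by -0.13 (-0.24 to -0.02, adjusted p = 0.187), F7 by -0.11 (-0.23 to 0.00) and C6 by -0.12 (-0.30 to 0.06), none of them called.

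WY14643 was lower than rosiglitazone for 16 members (8.15% of all genes) and higher for 1, Hp (9.44%), by 0.15 (0.07 to 0.23). C8b differed by -0.42 (-0.52 to -0.31), C2 by -0.39 (-0.50 to -0.28), C6 by -0.33 (-0.51 to -0.15) and F7 by -0.25 (-0.37 to -0.14). GW501516 was lower than rosiglitazone for 3 members (1.34%): C2 by 0.25, C8b by 0.20 and Serpinc1 by 0.04. C9 did not pass in that pair (-0.15, interval -0.26 to -0.03, adjusted p = 0.168).

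Other genes of the same pathways gave the following counts in liver. Of 23 other complement genes, WY14643 lowered 8 and raised 2. C1s1 and C1ra, the proteases bound to C1q, fell by 0.33 ± 0.041 and 0.23 ± 0.029, and C8g, the third chain of C8, fell by 0.14 ± 0.027. Cd46, a membrane regulator, rose by 0.51 ± 0.106, and C5ar1, the C5a receptor of myeloid cells, by 0.50 ± 0.159 (0.33, adjusted p = 0.221 by limma, without the 2 low-weight arrays). GW501516 lowered 8 and raised 1, and rosiglitazone called 0 of 23.

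Of 26 other coagulation genes, WY14643 lowered 5 and raised 1, GW501516 lowered 6 and raised 1, and rosiglitazone lowered 4 and raised 1. Serpina5, the protein C inhibitor, fell by 1.06 ± 0.129 with WY14643 and 0.41 ± 0.129 with GW501516. F3, tissue factor, rose by 0.33 ± 0.105 with GW501516 and 0.39 ± 0.105 with rosiglitazone. Of 29 other acute phase genes, WY14643 raised 4 and lowered 7, or 1 and 5 without the 2 low-weight arrays. Lcn2, lipocalin 2, measured 1.45 ± 0.444 with all arrays and 1.21 (adjusted p = 0.0993) without them. Of 24 signalling genes and liver transcription factors, WY14643 raised 3 and GW501516 4, and rosiglitazone raised 8 and lowered 2. With clock covariates the signalling counts were 3 raised with WY14643, 1 raised with GW501516 and 0 called with rosiglitazone, and with GW501516 the other complement genes had 1 lower and 0 higher and the other coagulation genes 0 lower and 2 higher. Counts from the fit with all arrays and no covariates stand beside its shares of all genes called lower and higher. These were 5.72% and 5.51% with WY14643, 7.06% and 6.86% with GW501516 and 8.71% and 7.48% with rosiglitazone. Shares with clock covariates or without the 2 low-weight arrays are not given here, so these shares are no background for counts from those fits. Il1rn, the interleukin-1 receptor antagonist, rose by 2.29 ± 0.238 and 1.52 ± 0.238 with the first 2 compounds.

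The C1q chains followed macrophage markers across livers. In a fit of each gene on the mean of 12 macrophage markers, the slope was 0.82 ± 0.070 for C1qa, 0.70 ± 0.047 for C1qb and 0.96 ± 0.065 for C1qc, and 17 of 38 members were called (limma), against 13.6% of all genes. Pros1 had a slope of 0.24 ± 0.042, and C8b and C9 of 0.07 each, not called. The markers themselves were called in 0 of 12 with WY14643, 1 of 12 with GW501516 and 0 of 12 with rosiglitazone.

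In heart and muscle most members followed the liver transcript Alb across arrays. Alb ran from 5.21 to 13.63 in heart, 5.73 to 10.23 in kidney and 3.89 to 13.03 in muscle. The slope on Alb was called for 30 of 38 members in heart (1.77% of all genes), 9 in kidney (0.341%) and 26 in muscle (1.9%), each of them positive by limma. Fgb had slopes of 0.71 ± 0.031, 0.44 ± 0.095 and 0.61 ± 0.038 in the 3 tissues. Fgb in heart lay at 5.91, 8.83 and 11.54 in vehicle and at 5.77, 9.94 and 12.45 with WY14643, so both groups spanned a wide range.

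The members not called on Alb in heart were C1qa, C1qb, C1qc, C2, Masp1, Masp2, Cfb and Pros1. Pros1 had slopes of 0.00 ± 0.006 in heart, 0.01 ± 0.022 in kidney and 0.01 ± 0.024 in muscle, and lay between 12.31 and 13.13 on all heart arrays.

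**Figure D4:**
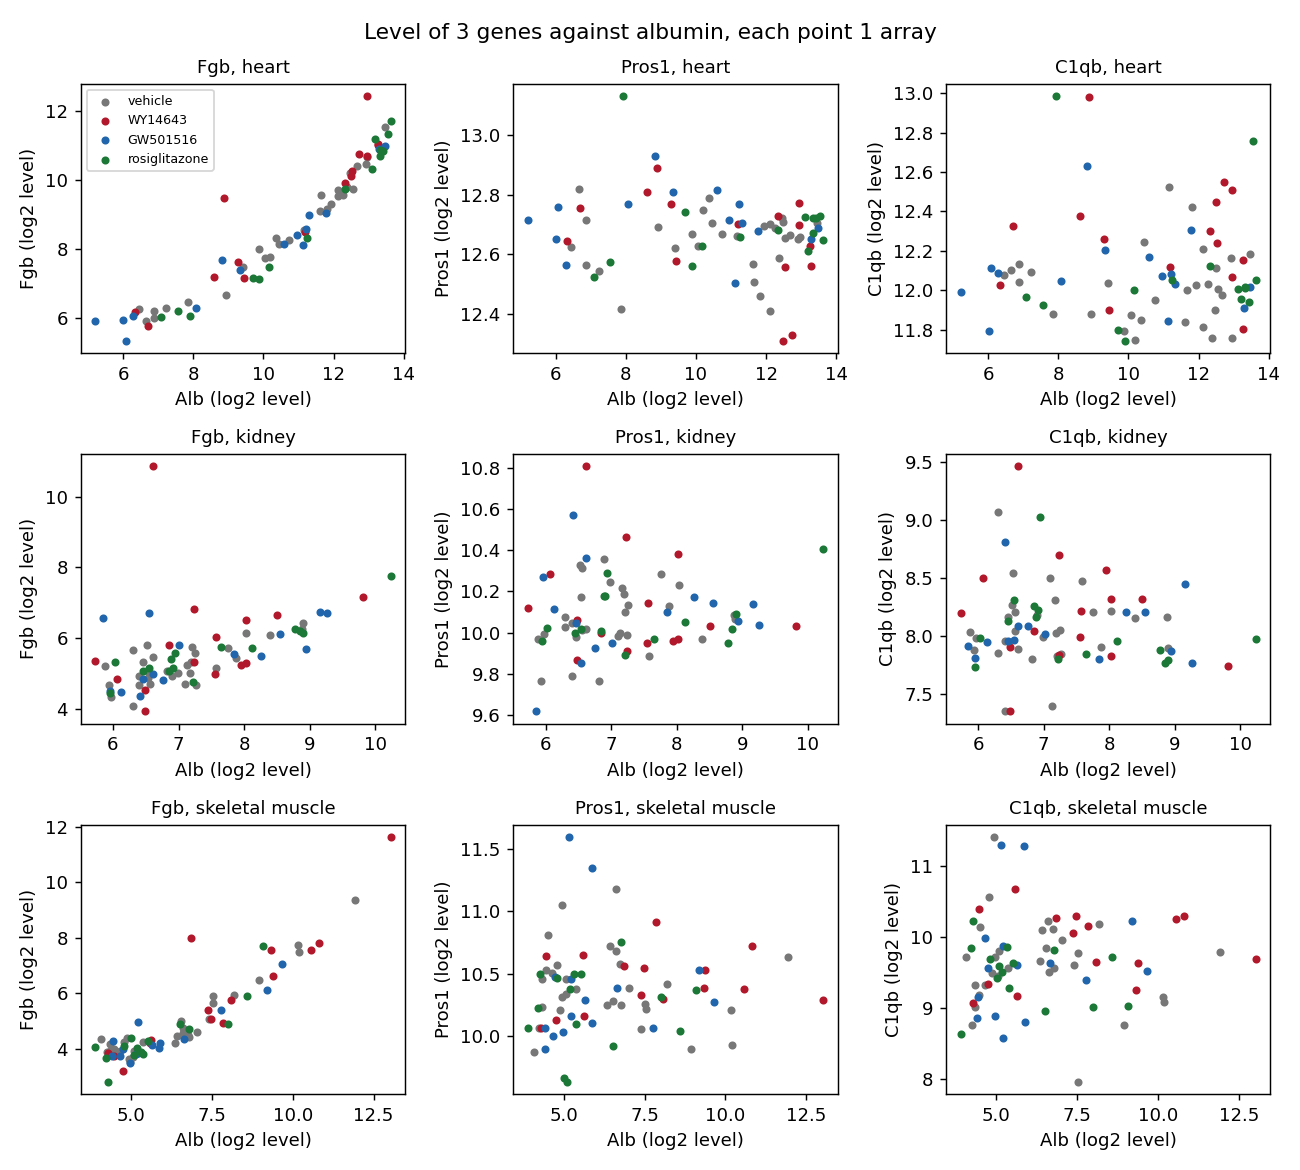
Log2 level of Fgb, Pros1 and C1qb (y axis) against Alb (x axis) on each array of heart, kidney and skeletal muscle, coloured by compound. Fgb climbs with Alb in heart, with a slope of 0.71, while Pros1 is level with a slope of 0.00.

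Averaged over the 3 days, few members were called against vehicle outside liver, whereas 17 were called in muscle with WY14643 on day 4 alone. In heart over the 3 days, WY14643 raised C1qa by 0.28 (adjusted p = 0.0468, limma; 1.44% of all genes called), from 9.64, 9.91 and 10.52 to 9.75, 10.23 and 10.94. The call was lost in 39 of 75 fits that left out 1 array, and the count changed in 50 of them. Macrophage markers averaged 8.79 to 9.86 in those hearts against 8.72 to 9.47 in vehicle, and their part in the result was not tested. Rosiglitazone raised Masp2 in heart by 0.27 (adjusted p = 0.0366; 7.51% of all genes called), from 6.30, 7.14 and 7.64 to 6.98, 7.35 and 7.77, and the call was lost in 11 of 75 such fits. GW501516 had 0 called (5 unadjusted by limma, 4.17%), or 1 without GW501516 day 15 replicate 2 or vehicle day 15 replicate 3.

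In kidney, WY14643 lowered Itih2 by 0.53 (adjusted p = 0.00554, limma) and Proc by 0.17 (adjusted p = 0.0116), where 1.74% of all genes were called. Itih2 lay at 5.85, 7.20 and 8.14 in vehicle and 6.01, 6.67 and 7.15 with WY14643. Proc lay at 10.88, 11.07 and 11.39 and at 10.74, 10.86 and 11.18. Both ranges overlapped, and both genes stayed called with Alb as a covariate (-0.54 and -0.16). The Proc call held under 8 of 8 alternatives, and the Itih2 call under 6 of 8, being lost with the replicate block and without day 8. The count was 5 without GW501516 day 8 replicate 1. GW501516 had 0 called (3 unadjusted by limma, 6.79%) and rosiglitazone 0 (1 unadjusted, 1.52%).

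Averaged over the 3 days, in muscle 0 members were called with WY14643 (12 unadjusted by limma, 0.104% of all genes called), GW501516 (0 unadjusted, 0.857%) or rosiglitazone (2 unadjusted, 1.65%). The WY14643 count was up to 2 without vehicle day 15 replicate 1 or WY14643 day 4 replicate 5. The median of the members was 0.29 with WY14643, where hepatocyte markers had a median of 0.90.

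On day 4 alone, 17 of the 38 members were called higher in muscle with WY14643 and 0 lower, where 1.27% of all genes were called higher and 2.07% lower by limma. The median of the members was 1.17, against -0.04 over all genes. On days 8 and 15 the count was 0 (0 unadjusted by limma on each, with 0.0385% and 0.0165% of all genes called). The effect on day 15 minus day 4 was called for 0 members (27 unadjusted).

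Fgb, the beta chain of fibrinogen, read 7.56, 8.00, 11.65, 7.56 and 5.40 on the 5 WY14643 arrays of day 4 and 3.51 to 5.07 on the 10 vehicle arrays, without overlap. It rose by 3.76 ± 0.661 (adjusted p = 0.000818, limma), with Fgg at 4.37 ± 0.777 and Fga at 4.52 ± 0.965. Hpx rose by 2.81 ± 0.438 and Itih4 by 3.14 ± 0.517. The C1q chains, Masp1 and Pros1 measured 0.03 to 0.15 and were not called.

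Alb moved with these genes on only part of the arrays. It read 9.33, 6.86, 13.03, 10.57 and 7.38 on those 5 WY14643 arrays and 4.08 to 7.41 on the vehicle arrays. Replicates 2 and 5 thus lay within the vehicle range of Alb. On replicate 2, Fgb (8.00) and Itih4 (9.07) lay above their vehicle arrays, while C8a (3.47) lay among its own. With Alb as a covariate 4 members were called, Hpx (1.40), Itih4 (1.74), Fgb (1.5) and Fgg (1.65), and with the mean of hepatocyte markers 0 were (7 unadjusted by limma). The count was also 4 without WY14643 day 4 replicate 3, the array highest in Alb.

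Of the 27 single-day comparisons outside liver, 25 had 0 members called by limma, with 0 to 15 unadjusted and at most 4.18% of all genes called. Beside muscle on day 4, the exception was F13b in kidney with GW501516 on day 8, which fell by 0.40 ± 0.127 (adjusted p = 0.0371, limma; 9.36% of all genes called). Replicate 1 of that group had the lowest array weight of the kidneys, 0.023 (limma). Its median correlation with the kidney arrays was 0.9263, against a median of 0.9929 over arrays. The F13b call without that array is not reported here.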

How the data were processed

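Total RNA was extracted with Qiagen miRNeasy and 100 ng was amplified with NuGEN kits, per the labels' protocols. The deposited values are log2 intensities per probe set of 300 Affymetrix arrays, made by the authors with RMA in Partek per the submitters' processing notes (versions not stated). The number of arrays limits the precision. Probe sets with 1 gene symbol (34945 of 45101) gave 18193 genes, each by its probe set of highest mean, and 0 columns of values were unused. C3 is not reported here. For every tissue alone, limma 3.58.1 (R 4.3.3) modelled 75 arrays in 12 groups of compound and day, with a variance trend, and p-values were adjusted over all genes. The fit was tested on simulated data.

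Genes named are the members, by role, and called genes of the listed pathways by size of change. Members and lists were chosen with earlier results of these data known. Alternatives covered normalization, filtering, probe set choice, array weights, days, covariates and each array left out. Leaving out the 2 arrays of lowest weight and using the probe set highest in liver were added after seeing the data, as was every alternative for muscle on day 4. Promoters came from RefSeq, GRCm38.p6. Labels spell the alpha agonist WY14643, the series' design text WY16453.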

Additional observations from a re-analysis of the deposited data

Results flagged for a closer look

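Single arrays stood far from the rest of their group in 11 of 153 groups tested, where chance gives about 1 in 20. The groups were those of 12 members in liver and of the fibrinogen chains with WY14643 on day 4 in heart, kidney and muscle. No other groups outside liver were tested. Those flagged outside liver were the fibrinogen chains on a single kidney array, so they are not independent. In liver vehicle groups, C8b on day 4 was low in replicate 6 (12.88 against 13.03 to 13.18), C9 on day 8 in replicate 8 (12.98 against 13.23 to 13.46) and C6 on day 8 in replicate 9 (12.11 against 12.48 to 12.81). With GW501516 on day 8, replicate 1 was high for F7 (11.31 against 10.68 to 10.86) and Itih1 (13.59 against 13.26 to 13.35). Fgg was low in GW501516 day 15 replicate 3 (14.10 against 14.20 to 14.21). Saa4 was low in WY14643 day 8 replicate 1 (12.70 against 12.92 to 12.98), and Plg was high in rosiglitazone day 8 replicate 2 (12.40 against 12.25 to 12.29).

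Among the groups tested, the farthest array was kidney WY14643 day 4 replicate 2, in which the 3 fibrinogen chains were high together. Fga was 11.95 there against 7.54 to 7.86 in the other 4 kidneys, Fgb 10.86 against 4.86 to 6.53, and Fgg 12.53 against 7.27 to 8.39. Alb was 6.61 on that array and 6.07 to 8.02 on the others. The array from this replicate number was among the 2 of lowest weight in each of the 4 tissues.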

How the results depend on the processing

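The 23 members called in liver with WY14643 kept their sign under 13 alternatives, with 16 to 24 called. The GW501516 count of 13 became 0 with clock covariates and 8 with macrophage markers as covariate. The rosiglitazone count of 6 became 1 with arrays shifted to one median, 3 with no variance trend, 10 with array weights, 1 without day 8, 0 with clock covariates, 11 with the compound and vehicle only and 10 without the 2 low-weight arrays. WY14643 minus GW501516 (8) became 1 with clock covariates and 3 without the 2 arrays, WY14643 minus rosiglitazone (17) became 4 with clock covariates, and WY14643 on day 15 minus day 4 (0) became 1 without the 2 arrays. Signs that turned with rosiglitazone were 3: Masp1 to 0.02 by the probe set highest in liver (adjusted p = 0.65, limma), and with clock covariates Fgg to 0.01 and Saa4 to -0.03. In heart, WY14643 (1) gave 3 with dim genes left out, 0 without day 8, 3 with clock, 3 with Alb and 2 with hepatocyte covariates, and 0 without the 2 arrays. GW501516 in heart (0) gave 1 with Alb and 1 with hepatocyte covariates. Rosiglitazone in heart (1) gave 0 with dim genes left out, quantile normalization, without day 8, with clock or with Alb covariates, and 3 with hepatocyte covariates. GW501516 in kidney (0) gave 1 with clock or hepatocyte covariates or without the 2 arrays. With dim genes left out, which removes members, slopes on Alb were called for 10 in heart, 2 in kidney and 0 in muscle, and kidney gave 5 without the 2 arrays highest in Alb. In muscle on day 4 alone, by alternatives added after seeing the data, the WY14643 count of 17 became 1 with dim genes left out (7 members remained), 10 with clock covariates, 10 without day 8, 4 with Alb and 0 with hepatocyte covariates. Other causes were not tested.

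Leaving out 1 array at a time gave 21 to 24 calls in liver with WY14643, 10 to 17 with GW501516 and 3 to 10 with rosiglitazone. The pairs gave 5 to 8, 15 to 19 and 2 to 4, and day 15 minus day 4 gave 0 to 0 for each compound. Heart gave 0 to 3, 0 to 1 and 0 to 2 in the same order, kidney 2 to 5, 0 to 0 and 0 to 0, and muscle 0 to 2, 0 to 0 and 0 to 0. Muscle with WY14643 on day 4 alone gave 4 to 23. Slopes gave 29 to 31 in heart, 6 to 9 in kidney and 26 to 27 in muscle.

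Within each tissue, replicate numbers showed no pairing of the samples by the median correlation of deviations over 45 pairs. This median was -0.021 in liver, 0.026 in heart, 0.003 in kidney and 0.051 in muscle. Whether a number names the same mouse across tissues was not tested. With the replicate block the liver counts were 19, 9 and 4, and the heart count with WY14643 was 0. Hp and Saa4 with WY14643 lost their calls under the block, which left 0 of 2 rises, and so did arrays shifted to one median. In liver 21 of 38 members had a vehicle mean over 13, where the highest value of any gene was 14.73, and what that does to the size of a change was not tested.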
